A study of Mus musculus with 10 samples.

Results

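The genes described here encode the proteins of the mitochondrial ribosome in mouse regulatory T (Treg) cells. Members were all probe sets whose platform annotation gives 1 gene symbol that starts with Mrpl or Mrps and a digit, with the probe set of the highest mean kept for each gene. This gave 71 genes of the 22180 tested, from 80 probe sets. The rule uses names and mean levels and no difference between groups. By ribosomal nomenclature 45 of the members belong to the large subunit and 25 to the small subunit, and Mrps36 is the 1 member outside it, since its human protein was assigned to the 2-oxoglutarate dehydrogenase complex. The subunit counts place Mrps18a and Mrps30 in the large subunit, where their proteins sit despite their symbols.

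Mitochondria keep a ribosome of their own, which translates the few mRNAs of mitochondrial DNA, all of them for subunits of the respiratory chain and ATP synthase. Its protein components are encoded in the nucleus, made in the cytosol and imported, so their mRNA levels are measured with those of other nuclear genes. Some of these proteins have counterparts in bacterial ribosomes and others are found in mitochondrial ribosomes only. In activated T cells the supply of respiratory chain subunits, and with it oxidative metabolism, depends on this translation.

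The arrays fall into 5 Fntb KO and 5 WT samples. In Fntb KO, Treg cells came from chimeras labelled Foxp3CreFntbfl/fl, in which Cre driven by the Treg transcription factor gene Foxp3 deletes the floxed Fntb gene, encoding the beta subunit of protein farnesyltransferase. WT Treg cells came from WT chimeras, and whether those carry the Foxp3Cre allele is not given in the labels. Cells of both groups were sorted as CD4+ YFP+ from spleen and pLN. The labels give no age and do not say whether each sample came from a separate animal, nor how far host cells remained in the chimeras. The spread behind every p-value is therefore that of these arrays, and may be technical. Values are log2 levels after RMA, the authors' normalization, and a difference of 1 is a doubling. Differences are Fntb KO minus WT, fitted with limma over all 22180 genes, and a gene was called at a Benjamini-Hochberg adjusted p under 0.05.

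Fntb itself was lower on every Fntb KO array, at 5.31 to 5.62, against 5.98 to 6.35 on WT arrays (difference -0.65, SE 0.0963, limma adjusted p = 0.00442, exact two-sided permutation p = 0.00794, the smallest that 5 against 5 arrays allow). The position of its probe set against the deleted part is not given in the sources used here. Foxp3 was high on all 10 arrays, between 10.48 and 10.62 in Fntb KO, against 10.63 to 10.70 in WT. Its groups did not overlap (difference -0.14, SE 0.0711, limma adjusted p = 0.601, exact two-sided permutation p = 0.00794), where 1.65% of all genes were lower without overlap. That permutation p is not adjusted over genes, and Foxp3 was not called. Medians over all genes were lowest on Fntb KO 1 (4.14), Fntb KO 2 (4.18) and WT 2 (4.13), against 4.19 to 4.26 on the other 7 arrays. These 3 low-median arrays stand apart in much of what follows. In the order of the sample titles they stand directly after each other, as Fntb KO 1, WT 2 and Fntb KO 2. The labels do not say what that order stands for. They were picked as the 3 lowest by this median and not by the level of the members. That pick is not independent of the members' levels, since other genes at such levels were also higher on these arrays, as given below. Over all genes there is no gap above these 3 arrays, since WT 5 was close to Fntb KO 2. Medians over all probe sets were 4.09 to 4.12 on these 3 arrays and 4.19 to 4.25 on the others.

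The promoters printed next belong to members described further on. Mrps23 and Mrpl18 had the largest negative differences. Mrpl34, Mrps22 and Mrpl36, with a wide spread between arrays, and Mrpl32, with a positive difference, were picked with their motif matches in view, to show each of 3 motifs, so matches are over-represented among the printed stretches. Each is the stretch of 150 bases before the start site of the gene in the RefSeq promoter table (build GRCm38.p6; the build behind the array files is not named). Capitals mark matches, on either strand, to a motif of nuclear respiratory factor 1 (NRF1, a consensus of 10 letters with 1 free position), of ETS factors such as GABPA (CCGGAAG) or of YY1 (AAGATGGCG), factors known to bind promoters of nuclear genes for mitochondrial proteins. Mrpl34 (chr8:71464776-71464925, plus strand) and Mrps22 (chr9:98601680-98601829, minus strand) hold an ETS match 37 and 11 bases before the start. Mrpl36 (chr13:73330859-73331008, plus strand) holds a YY1 match at 31 bases and Mrpl32 (chr13:14613038-14613187, minus strand) an NRF1 match at 87 bases. Mrps23 (chr11:88204238-88204387, plus strand) and Mrpl18 (chr17:12916092-12916241, minus strand) hold none of these letters in the stretch shown.
Mrpl34: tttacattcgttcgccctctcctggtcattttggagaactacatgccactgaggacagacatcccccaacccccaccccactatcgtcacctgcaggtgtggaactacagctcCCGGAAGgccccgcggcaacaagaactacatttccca
Mrps22: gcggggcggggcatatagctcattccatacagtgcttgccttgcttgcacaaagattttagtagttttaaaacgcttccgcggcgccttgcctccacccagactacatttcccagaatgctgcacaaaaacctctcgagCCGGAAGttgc
Mrpl36: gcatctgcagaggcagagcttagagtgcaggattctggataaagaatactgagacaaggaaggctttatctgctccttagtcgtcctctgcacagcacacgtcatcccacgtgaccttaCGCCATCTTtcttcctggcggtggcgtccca
Mrpl32: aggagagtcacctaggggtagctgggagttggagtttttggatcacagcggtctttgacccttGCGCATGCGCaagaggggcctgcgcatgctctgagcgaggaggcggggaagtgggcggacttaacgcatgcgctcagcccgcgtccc
Mrps23: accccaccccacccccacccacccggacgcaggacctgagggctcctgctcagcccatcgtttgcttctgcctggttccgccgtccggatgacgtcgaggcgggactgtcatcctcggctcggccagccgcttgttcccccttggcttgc
Mrpl18: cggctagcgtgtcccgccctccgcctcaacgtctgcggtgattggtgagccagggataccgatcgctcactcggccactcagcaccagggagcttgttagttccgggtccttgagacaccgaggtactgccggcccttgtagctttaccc

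The promoter table held 62 of the 71 members, with 68 windows of 300 bases, which run from 250 bases before to 50 after the start. An ETS match lay in 33.8% of member windows, against 8.86% of all 32851 windows and 18.0% of the 10970 windows of genes whose mean level was at or above the median gene. For NRF1 the shares were 16.2%, 4.60% and 10.2%, and for YY1 11.8%, 1.40% and 3.10%, in the same order. At least 1 of the 3 motifs was found in 36 of the 68 member windows (52.9%, against 13.6% of all windows and 28.02% of those of the more highly expressed genes). Other elements searched were found at shares nearer to that last background. The cAMP response element GTGACGTCA was in 2.94% of member windows, against 2.35% of windows of the more highly expressed genes. The E-box CACGTG was in 10.3% of member windows, against 10.1%, the letters CCAAT in 39.7%, against 37.5%, and TATAAA in 7.35%, against 7.45%. None of the motifs holds another within it. These are matches of letters on both strands, given as a description with no test.

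No member passed the test between Fntb KO and WT Treg cells. Of the 71 members 0 were called, where 1.11% of all genes tested were (0.302% higher and 0.807% lower in Fntb KO). The limma adjusted p of members ran from 0.213 to 0.998, and 4 members (5.63%) had an unadjusted p under 0.05, against 9.26% of all genes. The median difference over members was 0.05, against 0.01 over all genes, and it was negative for 23 members (32.4%), against 47.5% of all genes. Differences ran from -0.32 to 0.34, and 62 members differed by less than 0.2 in either direction. The 95% intervals of the fit lay between -0.77 and 0.66 over all members, and those of 15 members held a difference of 0.5 or more in size, so a change of that size was not excluded for them. In sorted cells measured in bulk, fewer cells of a type and less RNA per cell cannot be told apart.

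**Figure D1:**
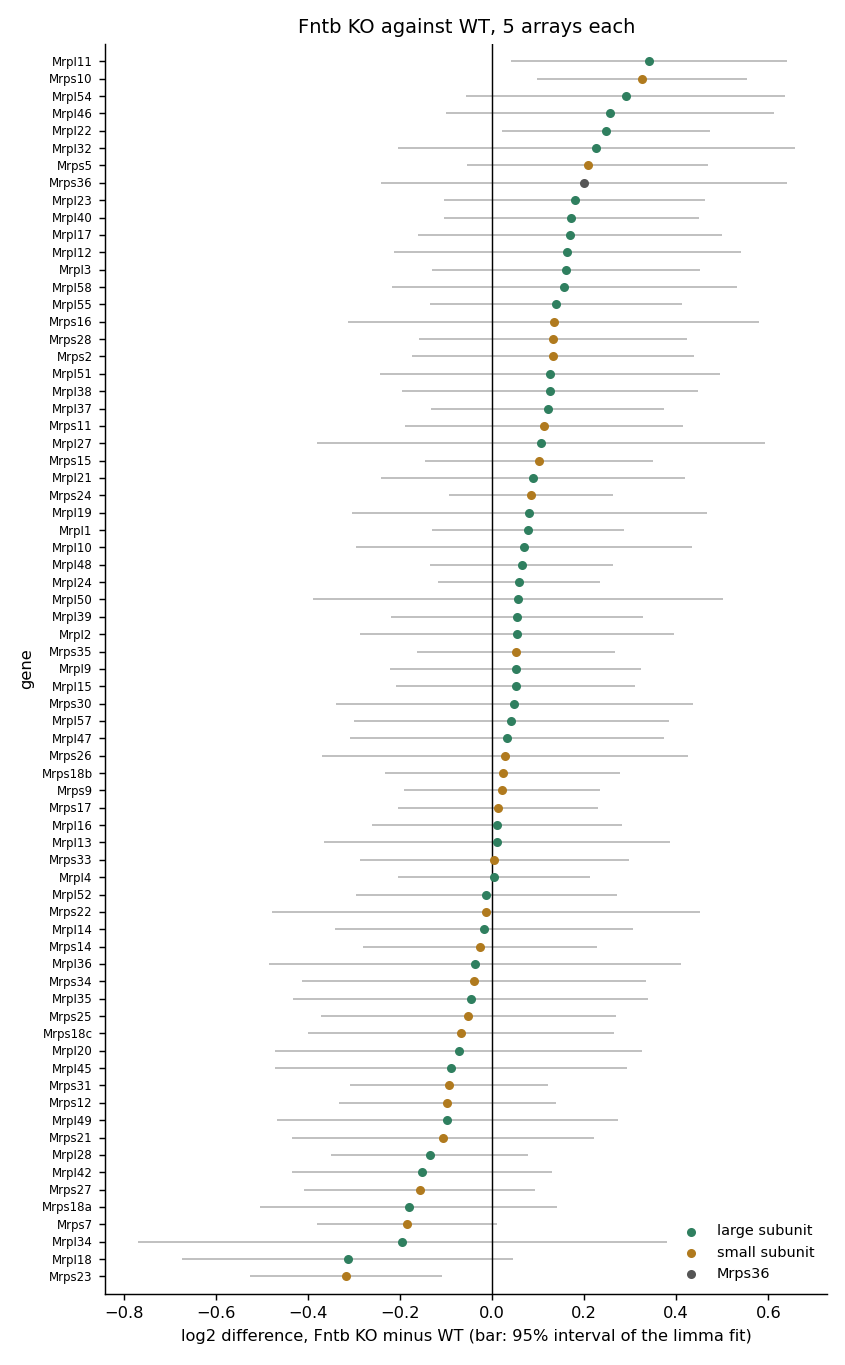
Log2 difference (Fntb KO minus WT, horizontal axis) of each of the 71 genes, ordered by size, with the 95% interval of the limma fit as bars and the subunit as colour. Points run from -0.32 (Mrps23) to 0.34 (Mrpl11), and the intervals of all but 4 genes cross 0.

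Among small-subunit members, Mrps23, a protein found in mitochondrial ribosomes only, had the largest negative difference. Its level was 6.39, 6.49, 6.36, 6.59 and 6.33 on Fntb KO 1 to 5, against 6.77, 7.04, 6.64, 6.60 and 6.70 on WT 1 to 5. All Fntb KO arrays lay below all WT arrays, though Fntb KO 4 and WT 4 came within the second decimal of each other. The difference was -0.32 (SE 0.0971) with a limma adjusted p of 0.213. Mrps23 was the 1 member (of 71) whose groups did not overlap, where 2.67% of all genes had groups that did not (1.01% higher and 1.65% lower in Fntb KO), and its groups did overlap after a further quantile normalization.

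Mrps10, a head protein of the small subunit with a bacterial counterpart, had the largest positive difference in that subunit. It measured 5.99, 5.96, 5.72, 5.78 and 6.12 on Fntb KO 1 to 5, against 5.55, 5.87, 5.62, 5.43 and 5.48 on WT 1 to 5. The groups overlapped through WT 2, whose value exceeded those of Fntb KO 3 and 4. The difference was 0.33 (SE 0.106, limma adjusted p = 0.252). Mrps7, a protein of the same part of the small subunit, lay within 5.99 to 6.19 in Fntb KO, against 6.16 to 6.52 in WT, at a difference of -0.18 (SE 0.0907, adjusted p = 0.579). Mrps27, which carries RNA-binding pentatricopeptide repeats, differed by -0.16, from 4.97 ± 0.26 over Fntb KO arrays and 5.13 ± 0.08 over WT arrays (SD, n = 5 each).

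In the large subunit the largest positive difference was that of Mrpl11, a protein of the region where translation factors with GTPase activity bind. Its values were 7.42, 7.11, 6.76, 6.91 and 6.90 on Fntb KO 1 to 5, against 6.40, 7.02, 6.68, 6.77 and 6.51 on WT 1 to 5. Again WT 2 reached into the range of Fntb KO, as WT 4 did, and the difference of 0.34 (SE 0.139) had a limma adjusted p of 0.444. Next in size were Mrpl54 (0.29), Mrpl46 (0.26), Mrpl22 (0.25), which lines the exit tunnel for the new peptide, and Mrpl32 (0.23), whose precursor is cut by the mitochondrial m-AAA protease before it is built into the ribosome. Their adjusted p ran from 0.473 for Mrpl22 to 0.825 for Mrpl32.

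Mrpl18, which in human cells was linked to the import of 5S rRNA, had the largest negative difference in the large subunit. The values were 7.54, 7.39, 6.81, 6.95 and 6.58 on Fntb KO 1 to 5, against 7.17, 7.68, 7.35, 7.36 and 7.26 on WT 1 to 5. Fntb KO 1 and 2 lay within the WT range and Fntb KO 3 to 5 lay below it. The difference of -0.31 (SE 0.167, adjusted p = 0.624) was not called over all arrays. When the fit took those 3 low-median arrays as 1 block and the remaining arrays as another, it was -0.43 (SE 0.0959, limma adjusted p = 0.0429), the 1 call among the 71 members in that fit, where 1.66% of all genes were called. Without those 3 arrays it was -0.51, with an adjusted p of 0.0794.

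**Figure D2:**
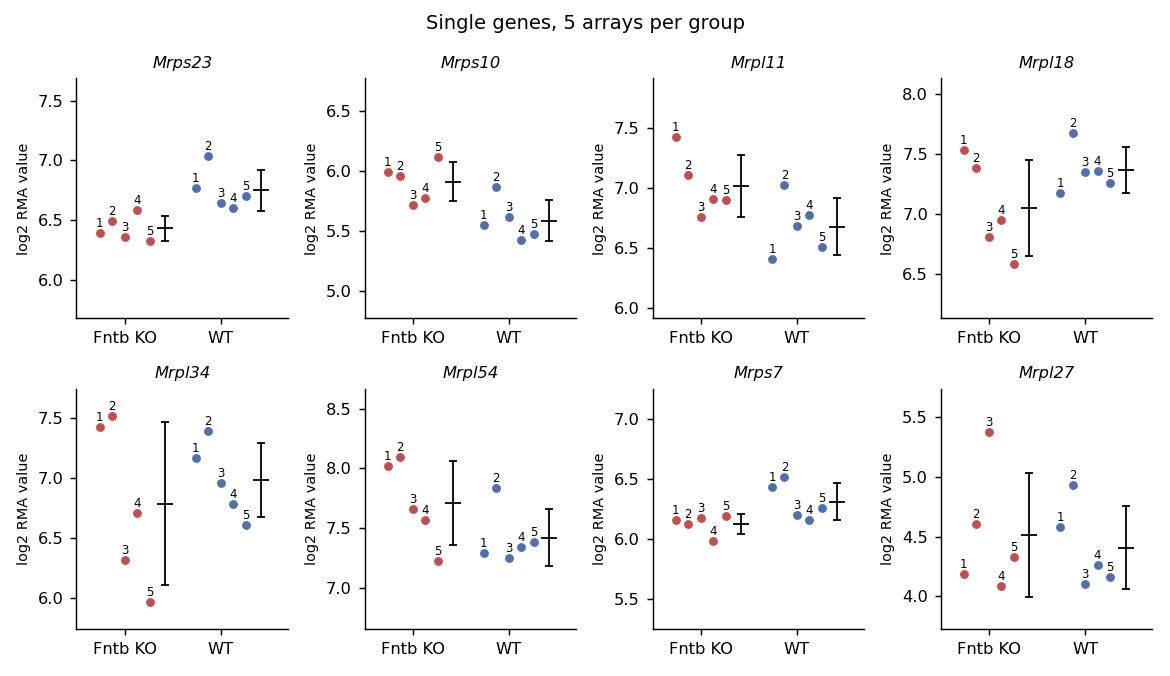
Log2 RMA values of 8 genes on each array, with the array number beside each point and the mean and SD (n = 5) at the right of each group. All panels span the same log2 range, and in Mrpl18, Mrpl34 and Mrpl54 the points of Fntb KO 1, Fntb KO 2 and WT 2 are the highest of their groups.

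The arrays of a group differed from each other more than the groups did. The median over the 71 members was 7.06, 7.11, 6.69, 6.65 and 6.35 on Fntb KO 1 to 5, against 6.64, 7.0, 6.61, 6.64 and 6.61 on WT 1 to 5. Fntb KO 1, Fntb KO 2 and WT 2 were the highest, Fntb KO 5 was the lowest of all, and the other arrays lay close together. The 5 medians of Fntb KO averaged 6.77 ± 0.32, against 6.70 ± 0.17 for the 5 of WT (± SD). They spanned 0.759 within Fntb KO and 0.395 within WT.

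**Figure D3:**
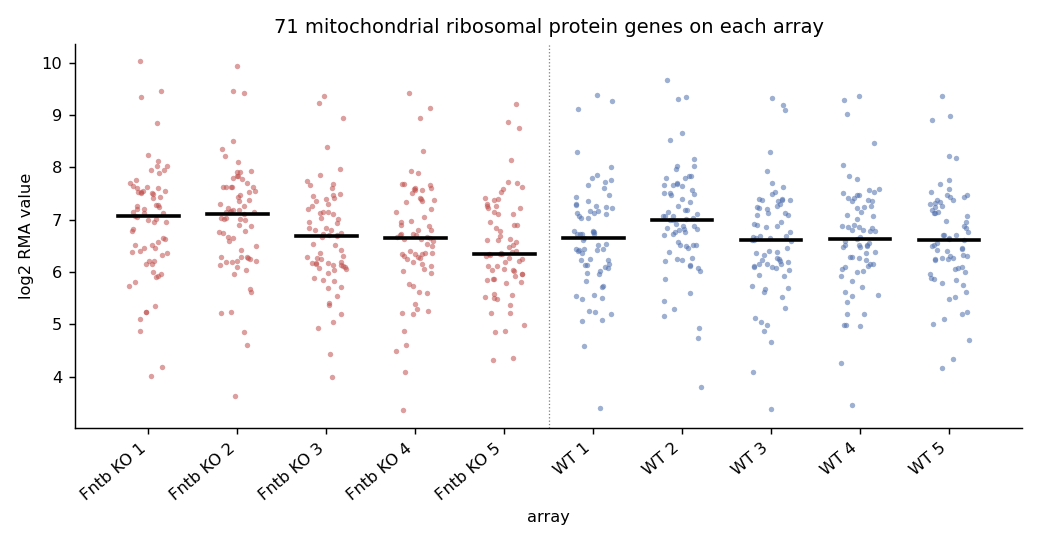
Each point is 1 of the 71 genes on 1 array (log2 RMA value, vertical axis), and the bar is the median of the 71. The medians stand at 7.06 and 7.11 on Fntb KO 1 and 2, 6.35 on Fntb KO 5 and 7.0 on WT 2, and between 6.61 and 6.69 on the other arrays.

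Nearly the whole family took part. Of the 71 members, 68 were higher on the mean of Fntb KO 1 and 2 than on the mean of Fntb KO 3 to 5, by a median of 0.39, and 69 were higher on WT 2 than on the mean of the other WT arrays, by a median of 0.35. Both held for 66 members (93.0%), against 34.3% of all genes. WT 2 was the highest WT array for 62 members (87.3%), against 27.8% of all genes. Either Fntb KO 1 or Fntb KO 2 was the highest Fntb KO array for 61 members (85.9%), against 44.6% of all genes. Fntb KO 5 was the lowest of its group for 38 members (53.5%), against 24.3% of all genes. In 42 members (59.2%) Fntb KO 1 and 2 both exceeded Fntb KO 3 to 5 while WT 2 exceeded every other WT array, against 10.7% of all genes.

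Part of this is seen in other genes of like level. The 2800 genes outside the family whose mean lay between 6.16 and 7.33, the quartiles of the members, were also higher on the low-median arrays, by a median of 0.17 in Fntb KO and 0.16 in WT, and 66.0% of them were higher in both comparisons. For 25.8% of them all 3 arrays stood above the others of their group. WT 2 was the highest WT array for 52.4% of them, and Fntb KO 1 or 2 the highest Fntb KO array for 68.0%. Fntb KO 5 was the lowest of its group for 32.4%. The members' shares and medians were larger than these. Members also followed each other more closely. After the mean of each group was taken off, the median correlation between pairs of members over the 10 arrays was 0.60, against 0.17 for pairs of the other genes at those levels and 0.00 for pairs taken at a fixed step of 10 genes through the whole table. All such pairs share the same 10 arrays and their normalization, and the correlations are a description.

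**Figure D4:**
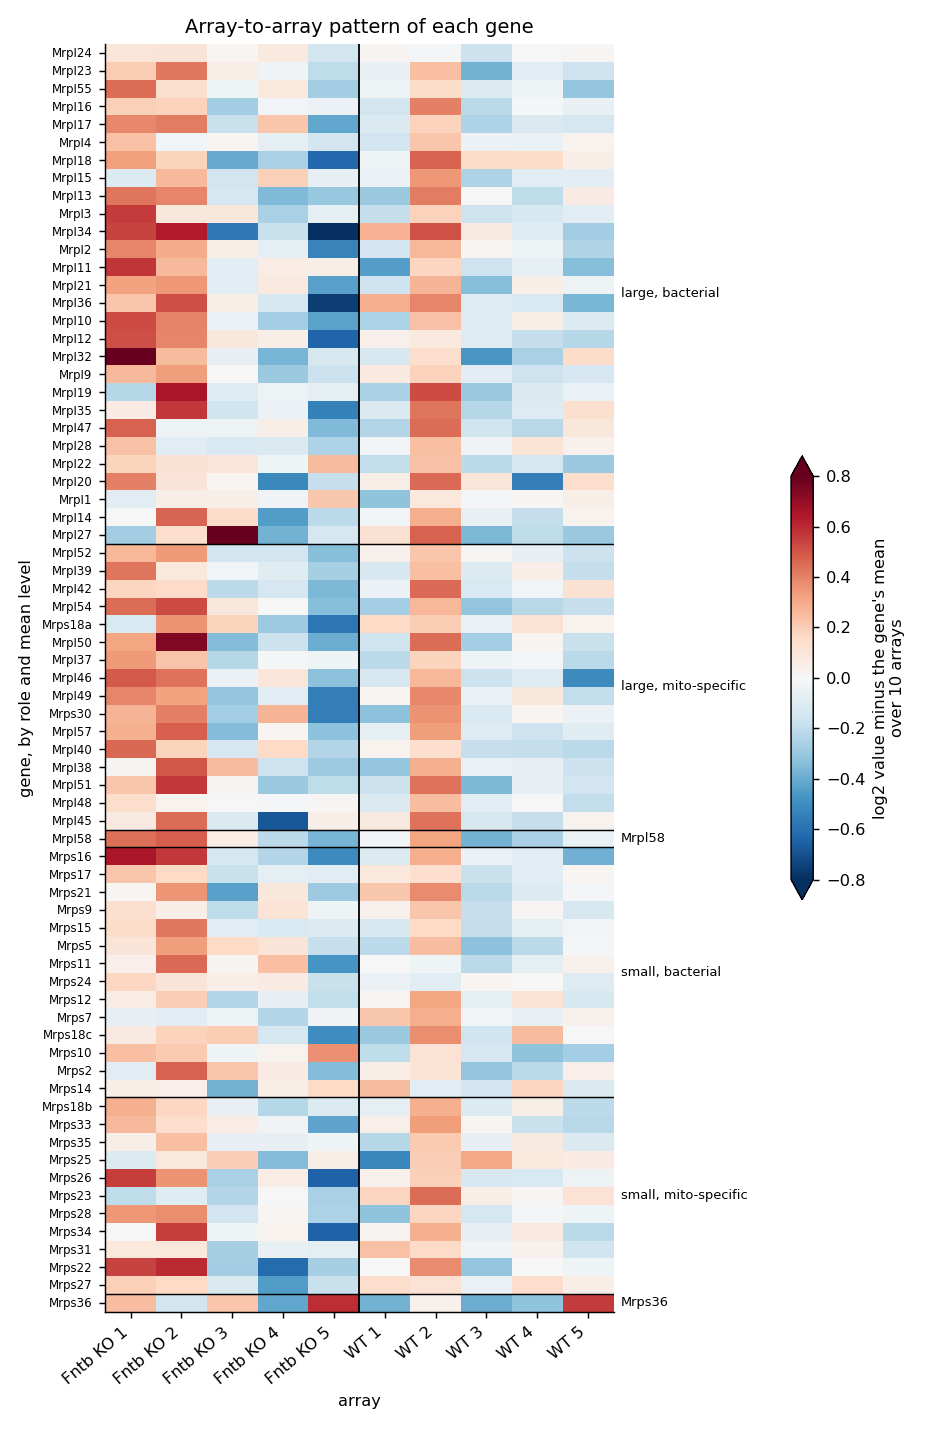
Log2 value of each of the 71 genes (rows, grouped by subunit and by whether the protein has a bacterial counterpart) on each array (columns), minus the mean of the gene over 10 arrays, with red above and blue below that mean. Mostly red columns stand at Fntb KO 1, Fntb KO 2 and WT 2 and a mostly blue column at Fntb KO 5 in both subunits, while rows such as Mrps36, Mrpl27 and Mrps14 do not follow.

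The array differences were widest in Mrpl34, a small protein with a bacterial counterpart. Its level was 7.43, 7.52, 6.31, 6.71 and 5.96 on Fntb KO 1 to 5, against 7.16, 7.39, 6.96, 6.78 and 6.61 on WT 1 to 5. The gap between Fntb KO 2 and Fntb KO 5 was larger than any difference between the groups in the family, and the mean difference was -0.19 (SE 0.267, adjusted p = 0.911). Mrps22, a small-subunit protein without bacterial counterpart, measured 6.37, 6.43, 5.55, 5.22 and 5.57 in Fntb KO, against 5.84, 6.21, 5.52, 5.83 and 5.80 in WT, at a difference of -0.01. Fntb KO 1 and 2 were the highest of all arrays for it and WT 2 the next.

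Mrps16, with the highest mean level of the family (9.37), measured 10.02, 9.94, 9.23, 9.13 and 8.86 in Fntb KO, against 9.26, 9.66, 9.32, 9.28 and 8.98 in WT. Here too the top values were those of the 3 low-median arrays. Its second, dimmer probe set was higher on Fntb KO 1 and 2 than on Fntb KO 3 to 5 by 1.24, against 0.91 for the probe set kept. Mrpl50 and Mrpl36 also spread widely, at 0.83 and 0.65 in the same comparison within Fntb KO. At the narrow end stood Mrpl24, with 9.21 to 9.45 in Fntb KO and 9.18 to 9.37 in WT, Mrps24, Mrps7 and Mrpl48, with pooled SDs within groups of 0.09, 0.10, 0.12 and 0.13.

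A few members went their own way. The deviations of 63 members correlated above 0.5 with the median of the other members over the 10 arrays, with a median of 0.80 and the highest value in Mrpl54 (0.98), whereas 3 members had a correlation below 0: Mrpl1 (-0.16), Mrps36 (-0.14) and Mrps14 (-0.04). Next came Mrps25 (0.07), at a mean level of 7.07. Mrps36, the protein outside the ribosome, also had the lowest mean level, with 3.36 to 4.37 in Fntb KO, against 3.38 to 4.33 in WT. It was the 1 member with a mean under 4.19, a bound that 95% of the 1088 olfactory receptor genes, silent outside a few tissues, did not exceed. Mrpl27, whose bacterial counterpart lies near the site of peptide bond formation, had a single high value on Fntb KO 3 (5.37), where the other Fntb KO arrays held 4.08 to 4.60 and WT arrays 4.10 to 4.93. Mrps14 lay between 4.44 and 4.98 in Fntb KO and between 4.67 and 5.08 in WT.

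By role, the large subunit swung more than the small one. The median shift of the low-median arrays within Fntb KO was 0.45 over the 45 large-subunit members and 0.29 over the 25 small-subunit members, and within WT it was 0.42 and 0.29. Median SDs within Fntb KO were 0.34 and 0.21 in the same order, and within WT 0.22 and 0.17. The difference between subunits was not tested, and members of 1 ribosome on the same arrays are not independent. Proteins found in mitochondrial ribosomes only (27 members) and those with a bacterial counterpart (42 members) had shifts of 0.42 and 0.35 within Fntb KO, and of 0.36 and 0.35 within WT. The median genotype difference was 0.06 for the large and 0.01 for the small subunit.

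Mrps18a, Mrps18b and Mrps18c are paralogs related to bacterial S18. Of these Mrps18c takes the place of S18 in the ribosome, and Mrps18a and Mrps18b, at other sites, are counted above among the proteins of mitochondrial ribosomes only. Mrps18b averaged 7.75 ± 0.21 over Fntb KO arrays and 7.72 ± 0.19 over WT arrays, and Mrps18c averaged 5.83 ± 0.29 over Fntb KO arrays and 5.90 ± 0.28 over WT arrays (SD, n = 5 each). Levels of different probe sets set no order of abundance. Mrps18a, the large-subunit paralog, averaged 7.17 ± 0.37 over Fntb KO arrays and 7.35 ± 0.10 over WT arrays, and its Fntb KO arrays spread from 6.68 to 7.62 where WT arrays stayed within 7.21 to 7.47. None of the 3 was called (adjusted p 0.806, 0.983 and 0.958 for Mrps18a, Mrps18b and Mrps18c). Another probe set of Mrps18b differed by 0.33, against 0.02 for the one kept, and another of Mrps18c by 0.19, against -0.07 for the one kept. None of these was called when every probe set was tested. Of the 9 members with more than 1 probe set, 3 had differences of opposite sign between them.

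Spread within a group was larger in Fntb KO for 56 members (78.9%), against 61.8% of all genes and 71.1% of the other genes at the members' levels. The median SD of a member was 0.30 in Fntb KO and 0.19 in WT, against 0.18 and 0.15 over all genes. Fntb KO holds 2 of the 3 low-median arrays and WT holds 1, and the part of that placing in the spread was not tested. Outside those arrays the median over members still ran from 6.35 (Fntb KO 5) to 6.69 in Fntb KO, against 6.61 to 6.64 in WT.

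The sign of the small median difference between genotypes changed with the arrays included. Among the low-median arrays, the mean of Fntb KO 1 and 2 minus WT 2 had a median of 0.00 over members, with 35 of 71 negative. Among the other arrays, Fntb KO 3 to 5 minus WT 1, 3, 4 and 5 had a median of -0.03, with 44 of 71 negative. The median of 0.05 over all arrays was above both within-set values. Without the 3 arrays 7 members had groups that did not overlap (9.86%), close to the 10.1% of all genes with such groups in that smaller fit, and 0 members were called. Without Fntb KO 1 or Fntb KO 2 the median was -0.01 in each case, and without WT 2 it was 0.11. Without Fntb KO 5, which is not a low-median array, it was also 0.11, and without any other single array it lay between 0.02 and 0.08.

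Other genes of mitochondrial translation were followed through lists picked by function. Of 25 genes for assembly of the mitochondrial ribosome and modification of its RNA, 0 were called, with a median difference of 0.12 and 7 negative. Mtg1, a GTPase of large-subunit assembly, had the largest difference, at 6.72, 6.47, 5.70, 6.04 and 6.52 in Fntb KO, against 5.71, 6.35, 5.72, 5.76 and 6.04 in WT (0.37, SE 0.184, limma adjusted p = 0.580). Fntb KO 3 was the lowest of all 10 arrays for Mtg1, and the groups overlapped. Groups did not overlap in 1 of the 25 genes, Trub2, which was higher in Fntb KO, as were 1.01% of all genes without overlap. Its difference was 0.35 (SE 0.0902, limma adjusted p = 0.105). An unadjusted limma p under 0.05 was found for 4 of the 25 genes (16%), against 9.26% of all genes. Of 14 measured translation factors 0 were called, with a median of 0.06, and the elongation factor Tufm had the largest difference (-0.32, adjusted p = 0.609). Of 19 measured mitochondrial aminoacyl-tRNA synthetases 0 were called, with a median of 0.11 and Nars2 at 0.30 (adjusted p = 0.583). Of 12 genes for expression and replication of mitochondrial DNA 0 were called, with a median of 0.10 and Mterf2 at 0.29. Of 3 measured ribosomal proteins with other symbols 0 were called, and Gadd45gip1 was at 0.13. Of 9 transcriptional regulators of mitochondrial genes 0 were called, and Myc had the largest difference, averaging 9.32 ± 0.12 over Fntb KO arrays and 9.10 ± 0.07 over WT arrays (SD, n = 5 each; limma adjusted p = 0.399).

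These lists repeated the pattern between arrays to different degrees. The shift of the low-median arrays was 0.33 within Fntb KO and 0.16 within WT for assembly genes, 0.25 and 0.32 for translation factors, and 0.36 and 0.33 for genes of mitochondrial DNA. It was 0.11 and 0.07 for the aminoacyl-tRNA synthetases, below the 0.17 and 0.16 of other genes at the members' levels. The assembly genes were at that background within WT. The background was matched to the middle levels of the members, with means between 6.16 and 7.33. Median levels of the synthetases (6.10) and of the assembly genes lay under this range, so it is not matched to them. Over all genes, with a median level of 4.19, the shift was 0.01 within Fntb KO and 0.004 within WT. The 81 genes of the respiratory chain and ATP synthase, several of whose complexes include products of the mitochondrial ribosome, had 0.30 within Fntb KO and 0.25 within WT, and 72 of them (88.9%) were higher in both comparisons. The 67 genes for proteins of the cytosolic ribosome, the closest family by function, had 0.04 and 0.07, and 35 of them (52.2%) were higher in both. Their pairwise correlation had a median of 0.14, against 0.57 for the respiratory chain and 0.60 for the members. Neither comparison family had a called gene. The families also differ in median level, at 8.22 for the respiratory chain and 9.79 for the cytosolic ribosome, against 6.75 for the members. The part of level in these differences between families was not tested. They are descriptions, since all rest on the same arrays.

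**Figure D5:**
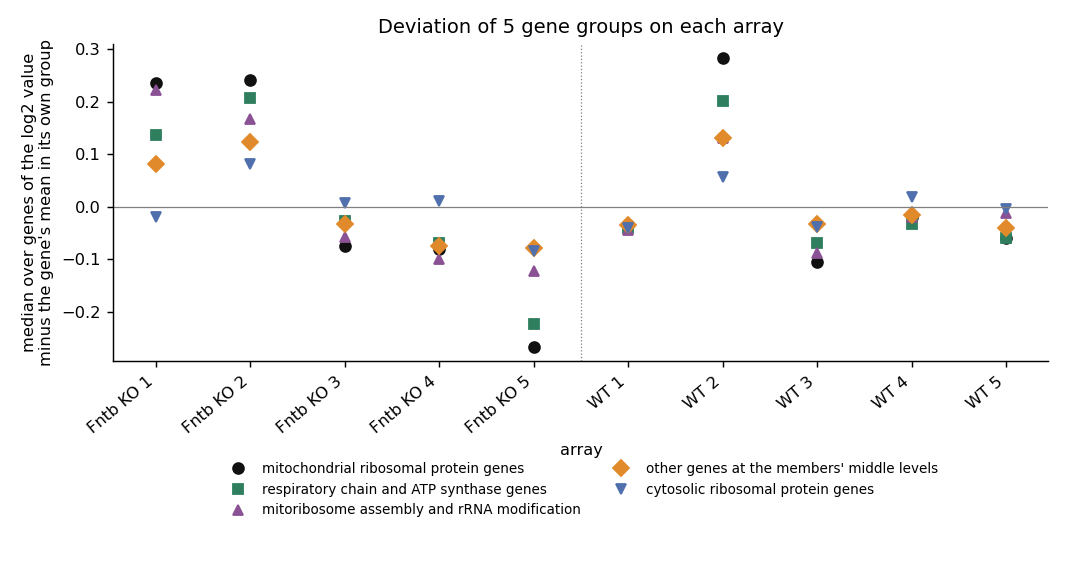
Median over the genes of each of 5 groups of the log2 value minus the mean of the gene in its own group (vertical axis), on each array. The members (black circles) reach 0.24 on Fntb KO 1 and 2 and 0.28 on WT 2 and -0.27 on Fntb KO 5, the respiratory chain genes follow, and the cytosolic ribosomal protein genes stay between -0.08 and 0.08.

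Markers of T cells moved in part with the same arrays. Of 7 measured T cell markers 0 were called and 7 were lower in Fntb KO. On the low-median arrays 6 were higher in both comparisons, with a median shift over the 7 of 0.12 within Fntb KO and 0.19 within WT. The other genes at the members' levels had 0.17 and 0.16, with 66.0% higher in both. The T cell markers had a higher median level (10.52), so these genes are not matched to them. The summed level of the T cell markers ran from 12.82 to 13.16 in Fntb KO and from 13.02 to 13.26 in WT (log2 of the summed linear values). Of 8 Treg markers 4 were higher in both comparisons, and the summed level was 12.50 to 12.64 in Fntb KO, below the 12.69 to 12.83 in WT. In that list 7 had a negative difference and Nrp1, a surface receptor of thymus-derived Treg cells, was called (-0.90, SE 0.126, limma adjusted p = 0.0028).

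Of 7 neutrophil markers 0 were higher on the low-median arrays in both comparisons and 5 had a mean under 4.19, with a summed level of 6.29 to 7.71 in Fntb KO, highest on Fntb KO 3, and of 6.32 to 6.63 in WT. Of 6 monocyte or macrophage markers 1 was higher in both and 3 were under 4.19, at a summed level of 7.56 to 8.38 in Fntb KO and of 7.87 to 8.28 in WT. Of 7 B cell markers 2 were higher in both and 3 were under 4.19, at 6.78 to 7.12 in Fntb KO and 6.86 to 7.19 in WT. Of 8 markers of CD8 T or NK cells 4 were higher in both and 6 were under 4.19, at 7.84 to 8.55 in Fntb KO and 8.31 to 8.77 in WT. In that list Nkg7, a granule protein of cytotoxic cells, was called, with all Fntb KO arrays (6.57 to 7.14) below all WT arrays (7.33 to 7.83; difference -0.79, SE 0.137, limma adjusted p = 0.0126). No other marker list outside Treg held a called gene. The 5 dendritic cell markers held 0 that were higher in both, the 6 plasma cell markers 2, the 4 platelet markers 2, the 6 stromal or endothelial markers 1 and the 2 erythroid markers 2. The part of other cells, of RNA amount, of array quality and of sample order in the difference between arrays was not tested.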

How the data were processed

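RNA from sorted Treg cells was turned into biotinylated cDNA by a NuGEN amplification, per the labels' protocols, and measured on 10 arrays. The values deposited by the authors are log2 levels from RMA in Affymetrix Expression Console 1.1, per the submitters' processing notes. RMA corrects background, quantile-normalizes arrays and summarises probe sets. Both deposited tables held identical values. Of 41345 probe sets, 23521 had 1 gene symbol in GEO's platform annotation and were used. For each gene the probe set with the highest mean was kept (22180 genes). All 80 member probe sets matched RefSeq symbols by Entrez identifier. Another 13 probe sets name a family gene beside another gene and were left out, which removed 7 family genes.

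Differences between Fntb KO and WT were fitted with lmFit and eBayes (limma 3.58.1 under R 4.3.3, with statmod 1.5.0), with no covariate and no filter on dim genes. The fit was tested on simulated data. The number of arrays limits the precision. Replicate numbers follow accession order and pair nothing. Named members are the 6 largest differences in each direction, the 6 widest and 4 narrowest spreads, the 4 highest and 3 lowest means and the Mrps18 paralogs. From lists of mitochondrial function, the largest difference is named, and from marker lists the called genes. Mrpl1, Mrps25 and Trub2 were chosen after their values were seen. The members and lists were chosen with earlier results of these data known. The 7 motifs were chosen by name and function. The 3 arrays with the lowest medians over all genes are the low-median arrays. Alternatives were other normalizations, filters, probe set rules, variance models and array sets.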

Additional observations from a re-analysis of the deposited data

Results flagged for a closer look

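Within a group of 5 arrays, 5 of 58 sets of values examined had 1 array far from the rest by Dixon's test, which chance gives in about 1 of 20 groups. The median over the members was 7.0 on WT 2, where the next WT array had 6.64. Mrpl54 was at 7.84 on WT 2, against 7.38 on the next WT array. Mrpl24 was at 9.18 on WT 3, against 9.34 on the next. Mrps14 was at 4.44 on Fntb KO 3, against 4.86 on the next array of that group, and Mrpl48 at 5.35 on Fntb KO 1, against 5.23. The first 2 of these belong to the pattern of WT 2 across the family.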

How the results depend on the processing

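The 21 alternatives left Fntb lower (-0.68 to -0.59, adjusted p at most 0.037). No paired analysis was possible because the labels carry no replicate numbers. Called members numbered 0 in each alternative except the block for the 3 low-median arrays, with 1 (Mrpl18, -0.43). Negative differences, 23 over all arrays, numbered 42 with that block, 44 without the 3 arrays and 14 to 40 without single arrays. Members whose groups did not overlap numbered 0 after a further quantile normalization, 7 without the 3 arrays and 1 to 3 without single arrays, where the shares of all genes were 2.84%, 10.1% and 3.32% to 4.86%. The median difference was -0.03 with the block and without the 3 arrays. Of 26 named members 14 kept their sign throughout, though some alternatives could not change a sign. The second deposited table held identical values. The other variance model and the filter on level leave the difference of each member they keep as it was. The sign turned with the block for Mrps16 (-0.011), Mrpl50 (-0.090), Mrpl39 (-0.018) and Mrps18b (-0.049), and without the 3 arrays for Mrps16 (-0.14), Mrpl50 (-0.16), Mrpl39 (-0.033), Mrps18b (-0.047) and Mrpl32 (-0.011). It turned with the array median as covariate for Mrps22 (0.074), Mrpl36 (0.0025) and Mrpl52 (0.021), with array weights for Mrpl36 (0.016), with the mean of probe sets for Mrpl36 (0.013) and Mrps18c (0.062), and after quantile normalization for Mrpl52 (0.027). Without single arrays, ranges that cross 0 were -0.38 to 0.011 for Mrpl34, -0.11 to 0.24 for Mrpl27, -0.16 to 0.14 for Mrps22, -0.17 to 0.15 for Mrpl36, -0.013 to 0.28 for Mrps16, -0.12 to 0.18 for Mrpl50, -0.10 to 0.072 for Mrpl52, -0.046 to 0.13 for Mrpl39, -0.071 to 0.065 for Mrps14, -0.045 to 0.10 for Mrps18b and -0.15 to 0.048 for Mrps18c. The cause was not tested. Signal over background limits Mrps36, whose mean lay under 4.19, and Mrpl27, whose level lay under it on 4 of 10 arrays.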
